A study of Mus musculus with 24 samples.

Results

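The miR-28, miR-151 and miR-708 family was followed through a metabolic labelling experiment in mouse 3T9 fibroblasts, an established cell line. The members were chosen by name: mmu-miR-28a-5p, mmu-miR-28a-3p, mmu-miR-151-5p, mmu-miR-151-3p, mmu-miR-708-5p and mmu-miR-708-3p, which are 6 of the 1221 mature miRNAs in the count table and 66 of its 7128 isoform entries. The set was selected with the summed counts of these miRNAs over the chase already known, so their levels and slopes are given as a description and are no support for the selection. The cells grew in DMEM with 10% serum, received 300 µM 4-thiouridine (4SU) for 3 h, a uridine analogue that is built into new RNA, and were then chased in 1 mM uridine. Labelled RNA was biotinylated and captured on streptavidin beads after 0, 2, 4, 6, 8, 10 and 12 h of chase in 3 independent experiments, which gave 21 small RNA libraries. The 3 control libraries, with 1 library of each kind, were total RNA from unlabelled cells, total RNA from 4SU-pulsed cells, and a negative extraction in which RNA of unlabelled cells went through the capture.

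A miRNA hairpin is cut into a duplex whose arms, 5p and 3p, can each be loaded into an Argonaute protein, and the loaded arm finds its target mRNAs mainly through its seed, bases 2 to 8. The miR-28, miR-151 and miR-708 hairpins are related in sequence and derive from an old LINE repeat. miR-28 is known as a restraint on B cell growth, miR-151 for its effect on cell migration together with its host gene product, focal adhesion kinase, and miR-708 for its induction in endoplasmic reticulum stress. Isoforms differ mainly at the 3′ end, through trimming, through extension along the hairpin (templated), or through added bases that the hairpin does not encode (non-templated), such as A or U tails.

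The 4 mature sequences below, from RefSeq on GRCm38.p6, are shown because they carry the relation between the miR-28a and miR-708 hairpins. Each is written 5′ to 3′, with the seed in capitals.
mmu-miR-28a-5p: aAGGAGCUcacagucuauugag
mmu-miR-708-5p: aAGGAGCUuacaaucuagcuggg
mmu-miR-28a-3p: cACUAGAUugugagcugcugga
mmu-miR-708-3p: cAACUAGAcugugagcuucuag
The 5p arms share the seed AGGAGCU, which no other of the 1679 mature mouse miRNAs in the RefSeq table has. That table lacks both miR-151 arms and matched 1037 of the 1221 counted miRNAs by name, so the others were not searched. Over their first 22 bases the 5p arms are equal at 16 positions, and the differences, counted from 1 at the 5′ end with the miR-28a base first, are C9U, G13A, U18G, U19C, G20U and A21G. The 3p arms have different seeds, which overlap when shifted by 1 base. Their longest shared run, UGUGAGCU, starts at position 9 in miR-28a-3p and position 10 in miR-708-3p. Uridines, the bases that 4SU replaces, number 5 in each of the 5p arms and 6 in each of the 3p arms.

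All 3 hairpins lie in introns of protein-coding genes, on the same strand as the host. On GRCm38 with GENCODE annotation, Mir28a is at chr16:24827855-24827940 (+) in an intron of Lpp, a focal adhesion protein gene. Mir151 is at chr15:73254815-73254882 (-) in an intron of Ptk2, the focal adhesion kinase gene, and Mir708 is at chr7:96249424-96249532 (+) in an intron of Tenm4, a teneurin gene. Within the hairpins, miR-28a-5p covers chr16:24827868-24827889 and miR-28a-3p chr16:24827908-24827929. miR-708-5p covers chr7:96249450-96249472 and miR-708-3p chr7:96249496-96249517.

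The labelled libraries held 1133048 to 7886484 miRNA counts (median 3019171), the unlabelled total 6412428, the 4SU total 4525638 and the negative extraction 283922. Levels are given in CPM, counts per 1000000 miRNA counts of a library; 3 counts were worth 0.380 to 2.65 CPM in the labelled libraries and 10.6 CPM in the negative extraction. The second header line of the table gives each library a code whose meaning is not explained; its middle part is the same within an experiment and differs between experiments, so whatever it marks cannot be told apart from the experiment. Experiment 1 shares that part with the negative extraction, and both total libraries share one of their own. Differences between labelled and total RNA, in levels, arm ratios or isoforms, therefore cannot be told apart from whatever this code marks. The code of the 0 h library of experiment 1 begins differently from those of the other 6 libraries of that experiment and the negative extraction, and the part of this in the results was not tested. The 6 mesenchymal marker miRNAs on the list used summed to 110100 to 219560 CPM, led by miR-143-3p and miR-21a-5p. The blood list summed to 185 to 734 CPM, nearly all of it miR-486a-5p, and the epithelial list to 201 to 1151 CPM, nearly all of it miR-205-5p, while miR-142a-3p, miR-223-3p and miR-200a-3p were near 0. The muscle list summed to 1.77 to 22.1 CPM. The part of these other lists in the results below was not tested. The 12 h library of experiment 1 stood apart from the rest of its experiment for several members, and calls that are lost without it are given with and without it.

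The members spanned more than 3 orders of magnitude, and miR-151-3p held most of the family's counts. Together the 6 members made up 2.20% to 3.05% of the counts of a labelled library, and miR-151-3p alone made up 61.9% to 83.0% of the family. miR-151-3p averaged 19730 CPM over the 21 labelled libraries (13611 to 25332), the 12th highest of 1221 miRNAs. miR-151-5p followed at 4751 CPM (3530 to 6691, rank 32).

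miR-28a-5p averaged 1166 CPM (869 to 1774, rank 56) and miR-28a-3p 516 CPM (387 to 645, rank 77). miR-708-5p averaged 31.9 CPM (14.0 to 46.8, rank 191) and miR-708-3p 10.7 CPM (2.86 to 23.0, rank 258). The ranges of these 6 members over the labelled libraries overlapped only between miR-708-5p and miR-708-3p. Among the relatives, miR-28c had 95 counts in all 21 labelled libraries together (1.02 CPM on average) and miR-325-3p had 1 count. Reads of miR-28a and of its near relatives can be shared or split by the authors' assignment, which is not given in the sources used here.

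**Figure D1:**
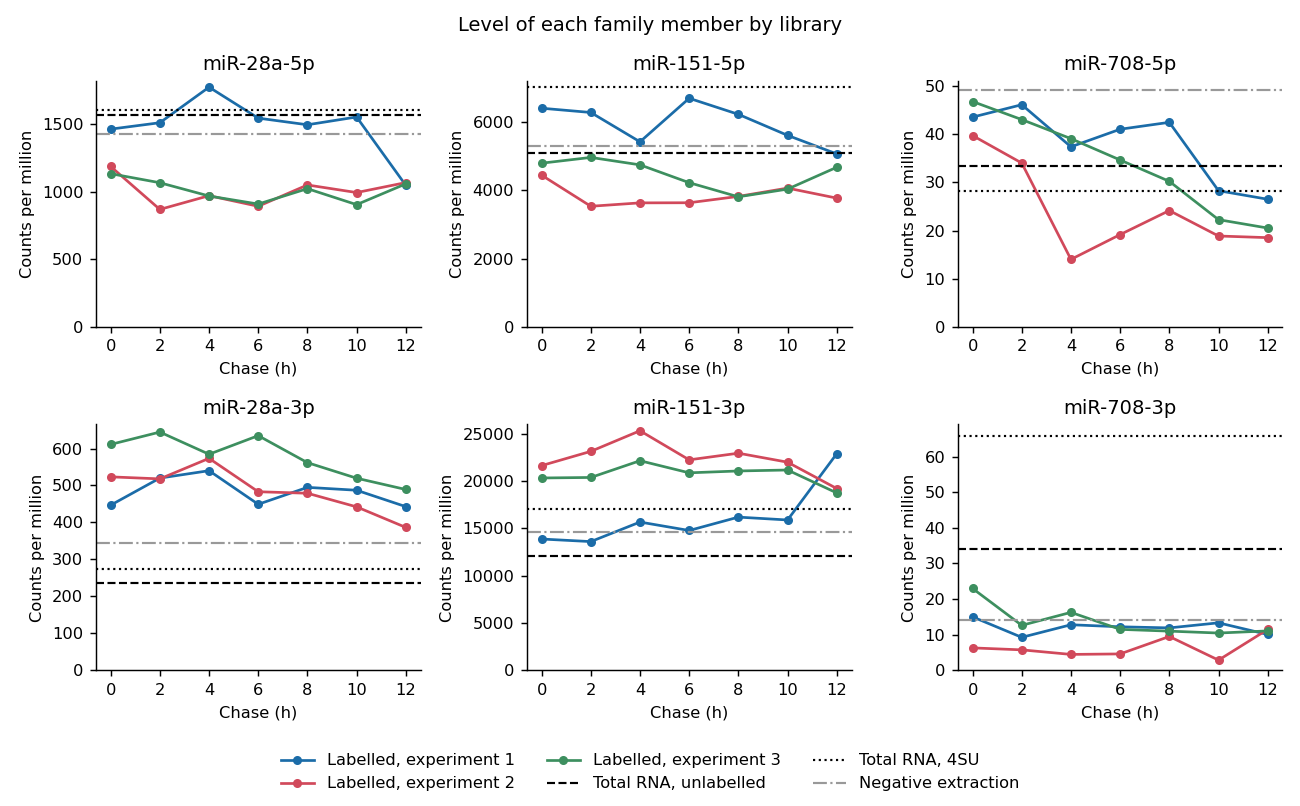
Level of each member in CPM (y axis, from 0) against hours of chase (x axis), with 1 line per labelled experiment and horizontal lines for the 3 control libraries. miR-708-5p goes down in all 3 experiments, from 39.7 to 46.8 CPM at 0 h to 18.5 to 26.5 CPM at 12 h, while experiment 1 lies apart from experiments 2 and 3 for both miR-151 arms and miR-28a-5p until its 12 h library.

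The chase asks which miRNAs gain or lose share in the labelled pool as it ages. miR-708-5p, the scarcer holder of the AGGAGCU seed, was the only member whose slope was called before the experiment entered as a block. In experiment 1 it stood at 43.6, 46.2, 37.4, 41.1, 42.5, 28.3 and 26.5 CPM at 0, 2, 4, 6, 8, 10 and 12 h. Experiment 2 gave 39.7, 34.0, 14.0, 19.2, 24.2, 18.9 and 18.5 CPM at the same times. These experiment 2 values rest on only 21 to 120 counts per library, where all 21 labelled libraries held 21 to 364 counts of miR-708-5p. Experiment 3 gave 46.8, 43.1, 39.1, 34.7, 30.2, 22.3 and 20.5 CPM. Every 0 h library was above every 12 h library, and experiment 3 went down at each step. The lowest value of experiment 2 came at 4 h, from 22 counts, against 25 counts at 6 h and 21 at 12 h.

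The slope of miR-708-5p was -0.061 log2 units per hour (SE 0.019), with an adjusted p of 0.036 in edgeR's quasi-likelihood test with Benjamini-Hochberg adjustment over 414 miRNAs. It was the only one of the 6 members called, against 12.3% of all miRNAs tested (51 of 414, 21 up and 30 down). With 6 members, 1 call does not set the family apart from that share. Once the experiment entered as a block, the slope was -0.063 (SE 0.015, edgeR adjusted p = 0.00135), and 31.9% of all miRNAs were then called. Fitted by experiment, the slopes were -0.043, -0.056 and -0.079 per hour in experiments 1, 2 and 3. Without the block the call was lost when experiment 1 (edgeR adjusted p = 0.113) or experiment 3 (0.283) was left out, without the 0 h (0.215) or the 12 h (0.191) libraries, and with no filter on low counts (slope -0.067, edgeR adjusted p = 0.108). The slopes are relative to the bulk of labelled miRNAs in the same library and are not half-lives: the median slope of all 414 miRNAs was -0.0037 per hour with TMM scaling, -0.023 with library totals only and 0.0053 with upper-quartile scaling. miR-708-5p kept its negative slope under each of these scalings, with an edgeR adjusted p of 0.0149 under library totals and 0.0613 under upper-quartile scaling.

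miR-28a-5p, which has the same seed as miR-708-5p, gave no call. It measured 1464, 1187 and 1134 CPM at 0 h in experiments 1, 2 and 3 and 1048, 1068 and 1058 CPM at 12 h. All 12 h values were below all 0 h values in CPM. In experiment 1 the whole drop came at the 12 h library, after 1464 to 1774 CPM from 0 to 10 h. Its fitted slope was 0.0049 per hour (SE 0.015, edgeR adjusted p = 0.868), and its sign turned to -0.015 with library totals only. Its partner miR-28a-3p had 527 ± 82.2 CPM (SD, n = 3) at 0 h and 439 ± 51.4 CPM at 12 h, and its slope was -0.0052 per hour (SE 0.012, edgeR adjusted p = 0.853). With the block and library totals together, a setting chosen after seeing the data, the slope of miR-28a-3p was -0.024 per hour (edgeR adjusted p = 0.0210).

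miR-151-3p, the most abundant member, did not move alike in the 3 experiments. It measured 18623 ± 4157 CPM (SD, n = 3) at 0 h and 20295 ± 2271 CPM at 12 h. In experiment 1 it stood at 13611 to 16199 CPM from 0 to 10 h and at 22904 CPM at 12 h. In experiments 2 and 3 the 12 h values, 19223 and 18757 CPM, were the lowest of their experiments, so in CPM only experiment 1 ended high.

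The slope of miR-151-3p was 0.026 per hour (SE 0.018, edgeR adjusted p = 0.418). With the experiment as a block it was 0.031 (SE 0.0095, edgeR adjusted p = 0.0133). That call rested on 1 library: with the block but without the 12 h library of experiment 1, the slope was 0.015 (edgeR adjusted p = 0.215). It was also lost with the block and library totals together (0.011, edgeR adjusted p = 0.366). By experiment the slopes were 0.064, 0.0036 and 0.018 per hour, all positive with TMM scaling, although in CPM only experiment 1 ended high. miR-151-5p went from 5210 ± 1046 CPM to 4501 ± 664 CPM (SD, n = 3), and its slope was 0.0042 per hour (SE 0.013, edgeR adjusted p = 0.868), turning to -0.015 with library totals only. miR-708-3p had 14.8 ± 8.34 CPM at 0 h and 10.9 ± 0.728 CPM at 12 h, with 5 to 116 counts per library, and its slope was -0.011 per hour (SE 0.031, edgeR adjusted p = 0.866).

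Set end against start, 12 h against 0 h called none of the 6 members at an adjusted p under 0.05 in edgeR, against 1.21% of all miRNAs tested (5 of 414, with 53 at an unadjusted p under 0.05). miR-708-5p had the largest difference of the 6, at -0.74 on the log2 scale (SE 0.315, edgeR adjusted p = 0.275), or 0.598-fold. With the experiment as a block, miR-708-5p was called lower (log2 difference -0.77, SE 0.227, edgeR adjusted p = 0.0163), and 21.7% of all miRNAs were called. miR-151-3p was called higher with the block (0.43, SE 0.151, edgeR adjusted p = 0.0399), but without the 12 h library of experiment 1 its difference was 0.07 (edgeR adjusted p = 0.780). The other 4 members differed by -0.21 to 0.03 on the log2 scale without the block, and none of them was called with it.

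The hairpins share an intronic location with many other miRNAs, and a list of 26 guide arms from introns of protein-coding genes was set beside them. Of the 24 tested, 4 rose over the chase (miR-25-3p, miR-148b-3p, miR-186-5p and miR-301a-3p) and 2 fell (miR-335-5p and miR-140-3p), where 12.3% of all miRNAs tested were called. Their median slope was 0.0065 per hour, against -0.0037 for all miRNAs. The slopes reached from -0.15 per hour for miR-335-5p (SE 0.038, edgeR adjusted p = 0.00897) to 0.21 for miR-301a-3p (SE 0.040, edgeR adjusted p = 0.00163). With the experiment as a block, 8 rose and 2 fell, where 31.9% of all were called.

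Likeness in pattern was described by Pearson's r of log2 CPM, taken as the deviation from the mean of each experiment, over the 21 labelled libraries and 139 other miRNAs of at least 100 CPM. All points share libraries and scaling, so r is a description. miR-708-5p was most like miR-335-5p (r = 0.788) and miR-3074-2-3p (0.744). miR-151-3p was most like miR-191-5p (0.851) and miR-181d-5p (0.821), and miR-151-5p like miR-214-5p (0.627) and miR-23a-3p (0.558). miR-28a-5p was most like let-7g-5p (0.697) and miR-15a-5p (0.653), miR-28a-3p like miR-1249-3p (0.545) and miR-674-3p (0.513), and miR-708-3p like miR-214-5p (0.597) and miR-3074-2-3p (0.509). Within the family, the arms of 1 hairpin did not vary together: r was -0.18 for miR-28a, -0.29 for miR-151 and 0.24 for miR-708, and the seed partners miR-28a-5p and miR-708-5p gave -0.05. The miR-708 value rests on 5 to 116 counts of miR-708-3p per library. The largest r in size between members was -0.66, for miR-28a-3p and miR-151-5p.

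The arms of the 3 hairpins differed in which arm was the more abundant. The ratio of 5p to 3p counts within a library needs no scaling between libraries. In the labelled libraries it was 1.43 to 3.44 for miR-28a, 0.143 to 0.461 for miR-151 and 1.62 to 6.60 for miR-708, so the 5p arm led for miR-28a and miR-708 and the 3p arm for miR-151 in all 21 libraries.

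For miR-28a, the ratio was lower in every labelled library than in the control libraries: it was 6.67 (95% interval 6.32 to 7.05) in unlabelled total RNA, 5.84 (5.50 to 6.21) in 4SU total RNA and 4.14 (3.32 to 5.22) in the negative extraction. These intervals, exact binomial for ratios and exact Poisson for levels, cover counting error only. The miR-28a interval of the negative extraction overlaps the labelled range, which reached 3.44. For miR-708, the ratio was higher in every labelled library than in total RNA, where it was 0.977 (0.806 to 1.19) in unlabelled and 0.430 (0.346 to 0.530) in 4SU-pulsed cells. The negative extraction gave 3.50 for miR-708, but from only 14 and 4 counts (1.10 to 14.6), which overlaps the labelled range. The leading arm of miR-708 thus differed between labelled and 4SU total RNA, with miR-708-3p the more abundant arm in the latter.

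For miR-151, the ratio went with the experiment. In experiment 1 it was 0.346 to 0.461 from 0 to 10 h and 0.221 at 12 h. In experiments 2 and 3 it was 0.143 to 0.205 and 0.181 to 0.249. The total libraries, 0.422 and 0.412, and the negative extraction, 0.362 (0.341 to 0.384), lay within the range of experiment 1 and above all values of experiments 2 and 3.

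Over the chase, none of the 3 ratios was called by limma with Benjamini-Hochberg adjustment over 102 hairpins, against 2.94% of all hairpins (3 of 102; at an unadjusted p under 0.05, 26 hairpins). The miR-708 ratio had the steepest slope, -0.06 log2 units per hour (SE 0.029, limma adjusted p = 0.181), from 3.75 ± 2.26 (SD, n = 3) at 0 h to 2.04 ± 0.534 at 12 h. Its slope was negative in 3 of 3 experiments (-0.05, -0.11 and -0.03). With the block the adjusted p was 0.0683, when 26.5% of hairpins were called. The miR-28a ratio had a slope of 0.010 (SE 0.024, limma adjusted p = 0.819) and the miR-151 ratio of -0.023 (SE 0.030, limma adjusted p = 0.683).

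**Figure D2:**
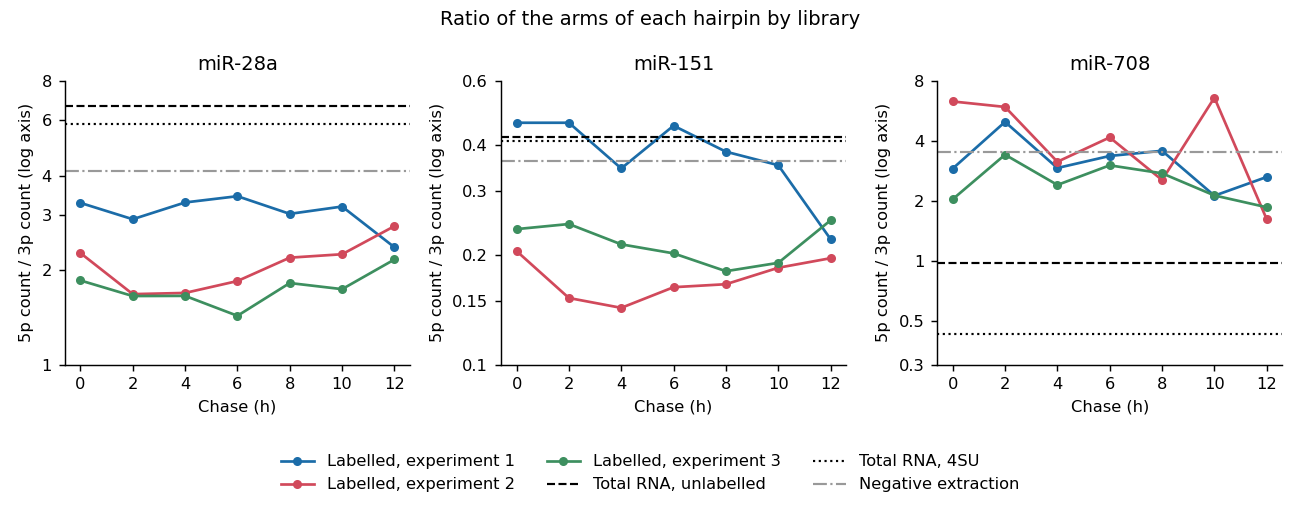
Ratio of 5p to 3p counts (y axis, log scale) for each hairpin against hours of chase (x axis), with 1 line per labelled experiment and horizontal lines for the 3 controls. The labelled miR-28a ratios lie below all control lines, the labelled miR-708 ratios lie above both total RNA lines, and the miR-151 ratio of experiment 1 is above that of experiments 2 and 3 until 12 h.

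Newly labelled RNA was set beside total RNA of 4SU-pulsed cells; with 1 control library the differences have no test. They are log2 ratios of CPM with a pseudocount of 1 CPM, for the 0 h libraries (mean ± SD, n = 3). miR-28a-3p was higher in labelled RNA by 0.93 ± 0.225, at 447, 523 and 611 CPM in the 0 h libraries against 274 CPM (259 to 290) in the 4SU total and 235 CPM (224 to 248) in the unlabelled total. Of the 414 miRNAs, 73 had a larger ratio. The negative extraction held miR-28a-3p at 345 CPM (280 to 421), between the totals and the labelled libraries.

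miR-708-3p stood at the other end, with a ratio of -2.25 ± 0.873, or -1.67 ± 0.513 with a pseudocount of 10 CPM. It had 15.0, 6.29 and 23.0 CPM in the 0 h libraries, against 65.8 CPM (58.6 to 73.8) in the 4SU total and 34.2 CPM (29.8 to 39.0) in the unlabelled total. Only 32 of the 414 miRNAs had a lower ratio. The 21 labelled libraries held miR-708-3p at no more than 23.0 CPM, below both totals, and the negative extraction held it at 14.1 CPM from 4 counts (3.84 to 36.1).

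The other members were nearer to the median of all miRNAs, -0.02. miR-708-5p had a ratio of 0.60 ± 0.116 at 0 h and of -0.37 ± 0.255 at 12 h against the 4SU total (28.3 CPM, 23.6 to 33.6). miR-28a-5p had a ratio of -0.36 ± 0.196, miR-151-5p of -0.45 ± 0.278 and miR-151-3p of 0.10 ± 0.347. In the negative extraction miR-28a-5p was at 1430 CPM, miR-151-5p at 5287 CPM, miR-151-3p at 14603 CPM and miR-708-5p at 49.3 CPM (27.0 to 82.7). The levels of miR-28a-5p, miR-708-3p and both miR-151 arms in the negative extraction fell within the range of the labelled libraries, and for miR-28a-3p and miR-708-5p the counting interval overlapped it. The part of unlabelled RNA carried through the capture in the results was not tested.

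The make-up of isoforms differed strongly between members, as the table's suffixes name the classes. Shares are percent of a member's own counts, averaged over the 21 labelled libraries. miR-28a-5p was mostly canonical (71.6%), with 11.4% trimmed and 15.6% carrying added A. miR-28a-3p was 52.7% canonical, and 35.1% of it had a non-templated 3′ end, mostly added A (25.8%). Pooled over the labelled libraries, its share of added A was exceeded by 3 of 205 miRNAs with enough counts, whose median was 1.88%.

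miR-151-5p was split between the canonical form (42.3%) and a templated 3′ extension (49.2%), a class with a median of 3.04% over the 205 miRNAs. Only 30 of them had a larger share of templated extension. miR-151-3p was spread over more classes: 40.8% canonical, 12.8% trimmed, 16.8% templated extension and 27.4% non-templated 3′ ends, with added A on 15.0% of all its counts and added U on 6.15%. It was also the member with the most templated 5′ extension, a change that shifts the seed, at 2.14%.

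miR-708-5p was the 5p arm with the smallest canonical share: 24.6% was canonical and 61.1% had a non-templated 3′ end. Mixed additions made up 32.7% of miR-708-5p, added A 21.0%, added U 5.95% and added C 1.49%. In both total libraries the non-templated share of miR-708-5p was lower, 36.9% and 39.1%, and the trimmed share higher, 40.7% and 33.6%, against 14.0% in labelled RNA. The highest trimmed share of miR-708-5p in any labelled library was 23.2%, below both totals. The negative extraction, with only 14 counts of miR-708-5p, was on the labelled side, at 85.7% non-templated and 0% trimmed.

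miR-708-3p was found mainly in trimmed form in labelled RNA: 762 of its 932 counts were trimmed, a mean share of 80.1%. In unlabelled total RNA 32.4% (26.3% to 39.0%) was trimmed and in 4SU total RNA 7.05% (4.41% to 10.6%), with canonical shares of 34.7% and 37.6%. The 12 h library of experiment 2, with 13 counts of miR-708-3p, was the one labelled library below the unlabelled total, at 15.4%. The other 20 labelled libraries were at 47.4% or above. The negative extraction, with only 4 counts of miR-708-3p, had 25% trimmed.

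**Figure D3:**
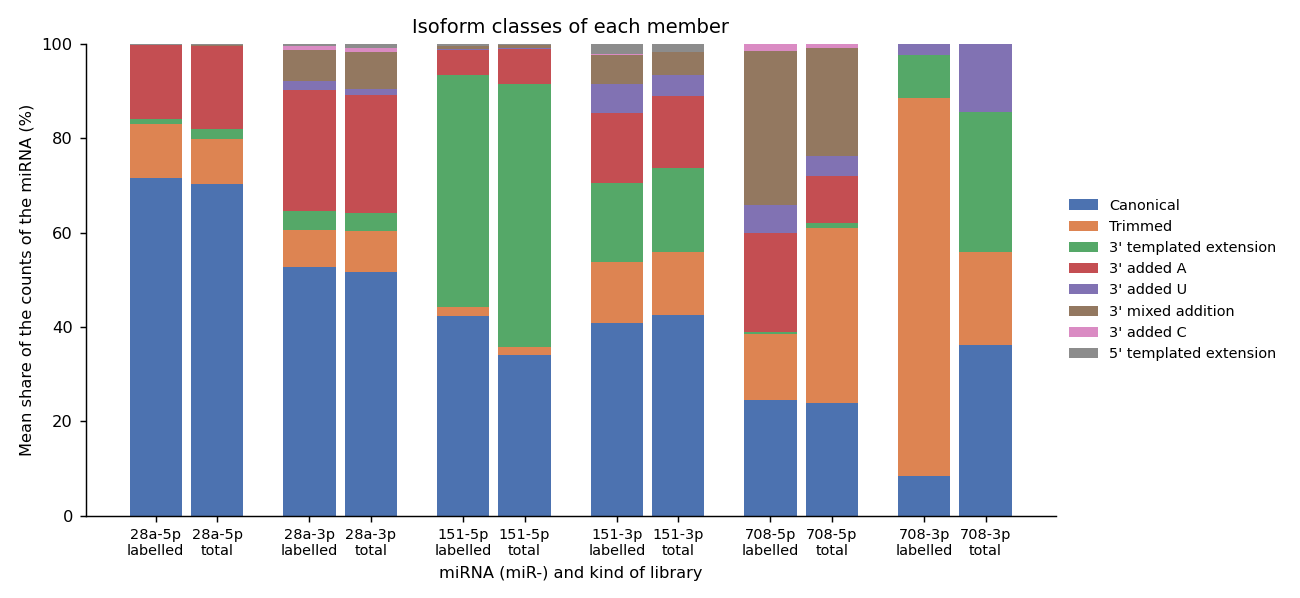
Mean share of a member's counts in each isoform class (y axis, percent), stacked, for the 21 labelled libraries and for the 2 total RNA libraries (x axis). miR-708-3p is 80.1% trimmed in labelled RNA, and miR-151-5p stands out by its templated 3′ extension of 49.2%.

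Over the chase, the slopes of some isoform shares were called in miR-151 and miR-28a. Of 37 pairs of member and class tested by limma on the log2 odds of the class, 6 were called, 4 up and 2 down, against 8.9% of all pairs (110 of 1236). The blocked fit called 10, of which 8 were up and 2 down, against 21.3% of all. Classes nested in each other, such as added A within non-templated ends, are not independent. With 37 pairs, some of them nested, these calls do not set the family apart from the shares over all pairs.

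Added A rose on mmu-miR-151-3p while added U fell. Added A made up 12.5%, 11.3% and 15.7% of miR-151-3p at 0 h in experiments 1, 2 and 3, and 14.7%, 19.2% and 19.0% at 12 h. Each experiment ended higher than it began, although the groups overlapped because experiment 3 began high. The slope was 0.04 log2 odds per hour (SE 0.011, limma adjusted p = 0.0207). Added U made up 7.46%, 6.36% and 6.67% at 0 h and 5.68%, 5.49% and 5.25% at 12 h, so that all 12 h values were below all 0 h values. Its slope was -0.03 (SE 0.0064, limma adjusted p = 0.00574). In total RNA, added U was at 5.01% and 3.97%, below every labelled library, and the negative extraction had 7.89% (7.09% to 8.75%).

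Added A rose on mmu-miR-151-5p too. It made up 4.35%, 4.74% and 4.65% at 0 h and 4.44%, 7.70% and 6.03% at 12 h in experiments 1, 2 and 3. Experiment 1 reached 6.24% at 10 h, and its 12 h library was back near the start. The slope was 0.04 (SE 0.012, limma adjusted p = 0.0202), and all non-templated 3′ ends of miR-151-5p together, which hold added A, gave 0.04 (SE 0.011, limma adjusted p = 0.0190). Total RNA had 6.90% and 7.88% of added A on miR-151-5p, and of the labelled libraries only the 12 h library of experiment 2 exceeded the lower of these.

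The canonical share of miR-28a-3p fell. It was 53.8%, 60.9% and 54.6% at 0 h and 48.1%, 46.3% and 48.2% at 12 h, with all 12 h values below all 0 h values. The slope was -0.05 (SE 0.010, limma adjusted p = 0.00673). Added C on miR-28a-3p, 0.609% ± 0.315 (SD, n = 3) at 0 h and 1.76% ± 1.33 at 12 h, had a slope of 0.11 (SE 0.032, limma adjusted p = 0.0408) from 4 to 34 counts per library, and that call was lost without the 12 h library of experiment 1 (limma adjusted p = 0.0701).

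Each of the 6 called slopes had the same sign in 3 of 3 experiments. No fit with the block left out an experiment, but without the block each call was lost when at least 1 experiment was left out. The highest adjusted p so reached was 0.219 for added A and 0.103 for added U on miR-151-3p, 0.156 for added A and 0.124 for non-templated ends on miR-151-5p, and 0.0631 for canonical and 0.305 for added C on miR-28a-3p, all by limma. With the block, limma also called the non-templated 3′ ends and added A of miR-28a-3p (slopes 0.04 and 0.03, adjusted p = 0.0198 and 0.0475) and of miR-28a-5p (0.03 and 0.03, adjusted p = 0.0351 and 0.0379) as rising. Without the 12 h library of experiment 1, the blocked miR-28a-3p calls held (limma adjusted p = 0.0187 and 0.0274), whereas both miR-28a-5p calls were lost (limma adjusted p = 0.101 and 0.106), as was added C on miR-28a-3p (0.0568). miR-708-5p, the member whose level was called as falling without the block, had no class called in either fit. Its canonical share had a slope of -0.08 (SE 0.029, limma adjusted p = 0.104) and its non-templated 3′ ends of 0.07 (SE 0.030, limma adjusted p = 0.194).

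**Figure D4:**
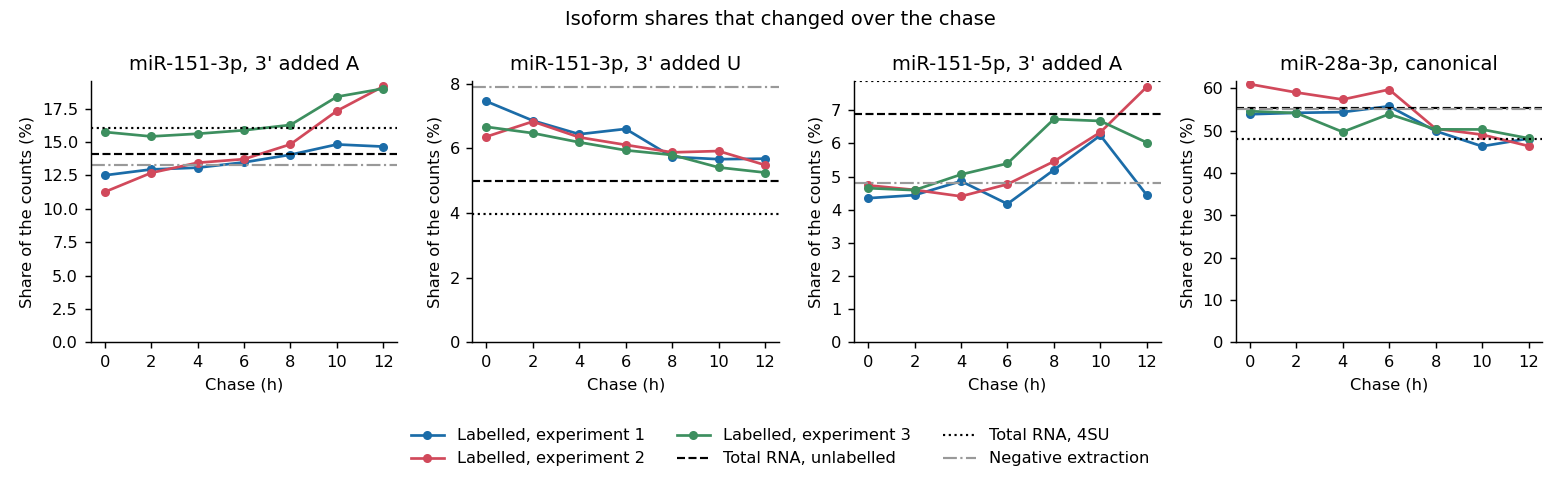
Share of a member's counts (y axis, percent, from 0) against hours of chase (x axis) for 4 of the called classes, with 1 line per labelled experiment and horizontal lines for the 3 controls. Added A goes up on miR-151-3p (13.2% to 17.6% on average) and miR-151-5p (4.58% to 6.06%), while added U on miR-151-3p (6.83% to 5.47%) and the canonical share of miR-28a-3p (56.4% to 47.5%) go down.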

How the data were processed

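Small RNA was sequenced from 24 libraries of 3T9 cells. The authors deposited 1 table of whole-number read counts per miRNA isoform, with CASAVA 1.8.0 named in the submitters' processing notes. Which aligner, isoform rules and genome build were used is not stated in the labels or headers. The suffixes of the isoform names were read as canonical, trimmed, 3′ or 5′ extended, templated (t) or non-templated (nt), with the non-templated 3′ ends split by added base. The split forms were checked to sum to their class in 25728 of 25728 cells, and 1 duplicated entry was removed.

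Counts were summed per mature miRNA. Slopes over hours of chase and 12 h against 0 h were fitted over all 21 labelled libraries with edgeR 4.0.16 (quasi-likelihood, TMM, filterByExpr, 414 miRNAs) in R 4.3.3, with no block. Arm ratios (pseudocount 0.5) and the log2 odds of isoform classes (means of at least 10 counts in the class and in the rest) were fitted with limma 3.58.1. The p-values were adjusted by Benjamini-Hochberg over all features, and the threshold was 0.05. The edgeR fits and the limma slope fit, all without the block, were tested on simulated data that held no experiment effect. The blocked and DESeq2 fits were not. Shares were ranked among 205 miRNAs with a mean of at least 100 counts. Library totals ran from 283922 to 7886484, and intervals are 95%.

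Replicate numbers are experiment numbers in the labels. Same-numbered libraries deviated together (r from 0.311 to 0.738 over 63 pairs; 21 of 21 libraries correlated best with their own number), so the number was taken as pairing the samples, and blocked values are given where they change a call. Alternatives were DESeq2 1.42.0, other scalings, filters, pseudocounts, the block and left-out experiments, times or libraries. All 6 members are named, with the 2 miRNAs nearest in pattern to each, a list of intronic miRNAs written from memory of their host genes, and classes of at least 1% of a member's counts. The members and lists were chosen by name with earlier results of these data known, so the tests describe how the members stand in fits over all miRNAs and are no independent evidence for choosing them. miR-151 sequences were not used here.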

Additional observations from a re-analysis of the deposited data

How the results depend on the processing

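The counts of calls depended on the experiment block more than the members' values did. With the replicate block, calls went from 51 to 132 of 414 miRNAs for the slope, from 5 to 90 for 12 h against 0 h, from 3 to 27 of 102 hairpins for the arm ratio, and from 110 to 263 of 1236 pairs for isoform shares. With the block and without the 12 h library of experiment 1 they were 127, 65, 28 and 252, and with the block and library totals the slope had 147; these settings were chosen after seeing the data. Leaving out 1 experiment gave 15 to 79 calls for the slope, 1 to 20 for the arm ratio and 31 to 121 for isoform shares, and leaving out 1 library gave 0 to 5 for 12 h against 0 h. Slope calls were 14 without the 0 h and 21 without the 12 h libraries. For 12 h against 0 h, DESeq2 called 15, library totals 14, upper-quartile scaling 8 and no filter 10. A pseudocount of 5 counts gave 7 arm ratio calls. Rising calls were 41.2% of the slope calls with TMM, 17.5% with library totals and 61.9% with upper-quartile scaling.

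The signs that turned belonged to values that were not called in the main fits. The slope of miR-28a-5p became -0.0146 with library totals, -0.0129 with totals and the block, -0.0023 with no filter and, with 1 experiment left out, -0.0012 (without experiment 3) to 0.0113 (without experiment 1). The slope of miR-151-5p became -0.0151, -0.0141 and -0.0026 under the same settings and -0.00012 to 0.0062 with 1 experiment left out. The slope of miR-28a-3p became 0.0053 with upper-quartile scaling, 0.0048 without experiment 2 and 0.0040 without the 12 h libraries. The slope of miR-708-3p became 0.0205 without experiment 3 (-0.0268 without experiment 2) and 0.0206 without the 0 h libraries. The miR-28a arm ratio slope became -0.0028 without experiment 2 (0.0269 without experiment 1). The cause was not tested. Of the 210 values for the members' 27 results under alternatives, 163 were counted as unchanged. That meant the same direction and side of the threshold or, for the untested log2 ratios to the 4SU total, a change under 1 SD. The replicate block changed no other call than those given beside the results. With a pseudocount of 10 CPM, the log2 ratio to the 4SU total at 0 h went from -2.25 to -1.67 for miR-708-3p and from 0.60 to 0.48 for miR-708-5p. Depth limits miR-708-3p most, with 5 to 116 counts per labelled library and 4 in the negative extraction.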
